A study of Homo sapiens with 82 samples.

Results

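Acetylation of histone H3 at lysine 27 (H3K27ac) was compared between HT29 cells kept for 48 h with 10 μM rosiglitazone and HT29 cells with the DMSO carrier alone. The comparison used the peak lists of 4 ChIP-seq libraries, 2 per group, out of 82 samples in the series, and these lists merged into 33853 sites. HT29 is an established line of colorectal adenocarcinoma cells, so all groups share 1 line. The label of the DMSO libraries carries no hour, so treatment and hours in culture cannot be told apart. As annotation, peak lists of PPARG (rosiglitazone, 2 and 48 h), of JunD (DMSO) and of RNA polymerase II (RNAP2; DMSO and rosiglitazone 48 h) were laid over the sites, again with 2 libraries each. PPARG was measured only in rosiglitazone-treated cells and JunD only in DMSO-treated cells. H3K27ac peak lists of rosiglitazone at 24 h and of the LXR agonist GW3965 at 24 and 48 h were read at some sites. RNA came from libraries of 48 h with DMSO, rosiglitazone, GW3965 or T0901317, another LXR agonist, 4 per group. Each drug was given at 10 μM. Nothing in the labels says whether replicates were separate cultures, so every p-value measures the spread between these libraries, which may be technical.

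H3K27ac is placed by the acetyltransferases p300 and CBP and removed by histone deacetylases, and it marks active promoters and enhancers. PPARG is a nuclear receptor that binds DNA as a partner of RXR and exchanges corepressors bound to HDAC3 for acetyltransferase coactivators when a ligand such as rosiglitazone occupies it. JunD is a subunit of AP1, a factor family that sits at many enhancers. RNAP2 is found at promoters and at active enhancers.

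The 4 libraries differed in how much was called. DMSO replicate 1 gave 23015 peaks and DMSO replicate 2 gave 27701, against 28561 and 28164 in the rosiglitazone replicates 1 and 2. Covered sequence was 49.4 and 67.9 Mb with DMSO and 75.5 and 56.2 Mb with rosiglitazone. The peak score, which is minus 10 times the log10 of the MACS p, had a median of 276 in DMSO replicate 1 and of 380, 371 and 386 in the other libraries. DMSO replicate 1 therefore stood apart, with the fewest peaks, the lowest scores and only 33 peaks at or above the score of 3100 where the files pile up, against 514 to 687 elsewhere. No measure separated the groups beyond what 2 against 2 libraries can show: the two-sided exact permutation test gave p = 0.333 for the number of peaks, the smallest value this design allows, and p = 0.667 for covered sequence. Read depth is unknown, since only peaks were used, and both the number and the score of peaks grow with depth.

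**Figure D1:**
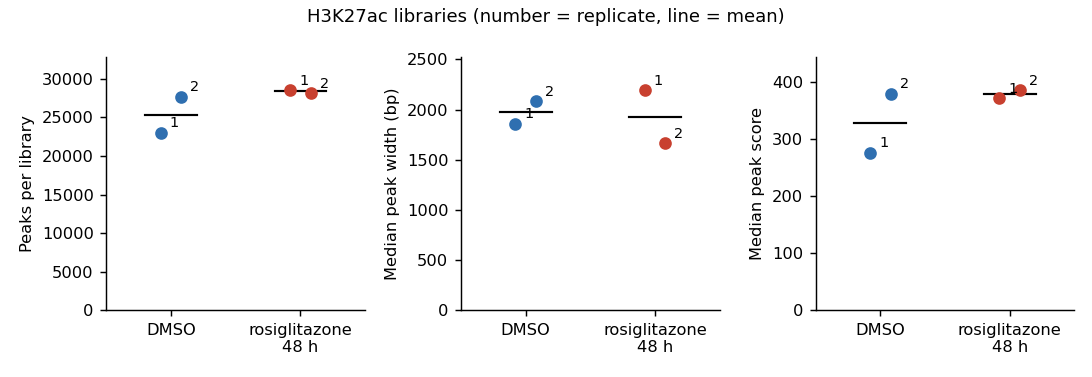
Number of peaks, median peak width in bp and median peak score of each H3K27ac library, with DMSO at left (blue) and rosiglitazone 48 h at right (red), the replicate number beside each point and the group mean as a line. DMSO replicate 1 lies lowest for peaks (23015) and for median score (276), while the widths of the groups overlap.

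A site was defined as the merged span of overlapping peaks of both replicates of a group. There were 19892 such sites with DMSO and 23192 with rosiglitazone. Of the rosiglitazone sites, 17527 overlapped a DMSO site (shared sites) and 5665 did not (gained sites). Of the DMSO sites, 2254 overlapped no rosiglitazone site (lost sites). Under the stricter demand that neither library of the other group held any peak there, 2724 sites were gained and 1062 were lost. Gains exceeded losses in each of the 5 alternatives that kept both replicates of each group, by the least when each library was limited to the same number of top-scoring peaks (3829 gained, 3178 lost). With DMSO replicate 1 left out, 3254 sites were gained and 6890 lost. Leaving out a library ends the demand for a peak in both replicates in its group alone, which by construction adds sites to that group, here from 19892 to 27701 DMSO sites. With DMSO replicate 2 left out the counts were 5216 and 2934, and without rosiglitazone replicate 1 or 2 they were 7753 and 1840 or 10010 and 1505.

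Over the 33853 merged regions, 17129 (50.6%) held a peak in all 4 libraries. Both rosiglitazone libraries and 1 DMSO library had a peak in 2898 regions, and in 2372 of these the DMSO peak came from replicate 2. Both DMSO libraries and 1 rosiglitazone library had one in 1189 regions. Peaks of a single library were mostly those of rosiglitazone replicate 1 (3115 regions) and DMSO replicate 2 (3226), the libraries with the most covered sequence, and few came from rosiglitazone replicate 2 (597) or DMSO replicate 1 (327).

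Gained and lost sites were both weaker and narrower than shared ones. The median width was 1829 bp for gained, 1737 bp for lost and 2738 bp for shared sites. Median scores of gained sites were 262 and 203 in the rosiglitazone replicates, compared with 611 and 634 for shared sites in the same libraries. Lost sites had median scores of 145 and 238 in the DMSO replicates, where shared sites had 348 and 705. Many gained sites were near the calling limit in DMSO, since 2414 of them held a peak in DMSO replicate 2 and 546 in DMSO replicate 1. The nearest DMSO site lay at a median of 19.4 kb from a gained site, and the nearest rosiglitazone site at 15.2 kb from a lost one. Among the autosomes and X, the share of rosiglitazone sites that were gained ran from 14.3% on chromosome 17 and 15.3% on chromosome 19 to 33.0% on chromosome 8.

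Overlap with PPARG, the receptor of the drug, was most frequent at gained and least frequent at lost sites. PPARG sites of 2 h overlapped 43.3% of gained sites (2454 of 5665; Wilson 95% interval 42.0 to 44.6), 29.0% of shared sites (28.4 to 29.7) and 9.09% of lost sites (7.98 to 10.4). Those of 48 h overlapped 32.6%, 18.8% and 2.31%. Taken alone, each PPARG library kept that order: the 2 h replicates gave 56.7% and 45.4% of gained, 42.2% and 30.3% of shared and 18.1% and 11.1% of lost sites. Under the stricter definition the shares at 2 h were 48.3% of gained and 6.12% of lost sites. A reciprocal overlap of 50% raised the share of lost sites to 23.3%, a difference of -4.04 points from shared sites, and without rosiglitazone replicate 2 gained sites exceeded shared ones by 5.47 points in place of 14.3. Counting error is all that these intervals cover, and a site is not a replicate of the treatment.

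JunD was mapped in cells that received DMSO only. Counted over all sites, it separated lost sites from the others more than it separated gained from shared sites. Its sites overlapped 24.4% of gained (23.3 to 25.5), 21.2% of shared (20.6 to 21.9) and 4.35% of lost sites (3.58 to 5.27). The difference between gained and shared sites was 3.15 percentage points, less than the SD of 3.66 between the JunD replicates, and it was -1.66 points when rosiglitazone replicate 2 was left out. Gained sites were weaker than shared ones, and within each range of site score, given below, the difference was larger (32.7% against 14.4% in the middle range). RNAP2 sites of DMSO-treated cells covered 79.6% of shared, 45.3% of gained and 39.7% of lost sites. Shared sites were also the strongest class, and RNAP2 shares within ranges of site score follow below.

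**Figure D2:**
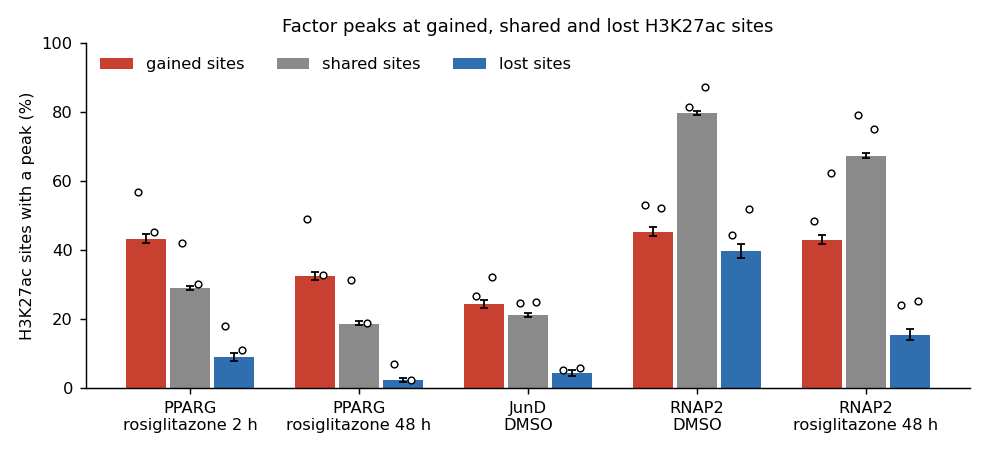
Percent of gained (red), shared (grey) and lost (blue) H3K27ac sites that overlap a site of each factor, named with its treatment on the x axis. Bars count factor sites found in both replicates with Wilson 95% intervals, and open circles use 1 factor replicate alone. PPARG at 2 h falls from 43.3% of gained to 9.09% of lost sites, while RNAP2 in DMSO covers mostly shared sites (79.6%).

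The contrast in PPARG held within ranges of site strength. Rosiglitazone sites were put in 3 ranges of equal number by the lower score of both replicates. In the lowest range (100 to 254), 34.2% of 3905 gained sites and 15.9% of 3826 shared sites had a PPARG site of 2 h. In the middle range (254 to 636) the shares were 60.0% of 1462 and 23.0% of 6268, and in the highest range 80.9% of 298 and 40.9% of 7433. JunD showed the same order inside each range, with 19.3% against 8.47%, 32.7% against 14.4% and 50.3% against 33.6%. RNAP2 of DMSO-treated cells was less frequent at gained than at shared sites, with 39.1% against 56.2%, 56.7% against 76.9% and 71.8% against 93.8%. For RNAP2 of rosiglitazone 48 h the shares lay closer, at 34.5% against 35.7%, 57.5% against 61.5% and 82.2% against 88.6%. Ranges of site width gave PPARG shares of 30.6%, 56.9% and 76.5% for gained sites from narrow to wide, against 11.1%, 20.7% and 47.2% for shared ones. For lost sites, the PPARG share at 2 h was 9.09% in the lowest range of DMSO score, where shared DMSO sites reached 32.7%.

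Each class of rosiglitazone sites with PPARG had a larger gained share than sites without it. Of the 4949 rosiglitazone sites with PPARG at both 2 and 48 h, 35.5% were gained (34.2 to 36.9), compared with 26.8% (25.1 to 28.5) of 2595 sites with PPARG at 2 h only and 20.2% (19.6 to 20.9) of 15462 sites without PPARG. The small class of 186 sites with PPARG at 48 h only had the largest share, 46.2% (39.2 to 53.4). Over all rosiglitazone sites the share was 24.4%. PPARG at 2 h without JunD went with 36.9% gained and PPARG with JunD with 27.4%, while JunD without PPARG stood at 26.5% and neither factor at 19.8%. Lost shares were lower with PPARG than without it. Of DMSO sites with PPARG at both times 1.48% were lost (48 of 3236), of those with PPARG at 2 h only 7.57%, of those with PPARG at 48 h only 3.77% (4 of 106), and of those without PPARG 14.1%. Where JunD and PPARG of 2 h coincided 1.80% were lost, with JunD alone 3.99%, with PPARG alone 5.76% and with neither 15.0%. With JunD taken into account, the class gained most, PPARG without JunD, was thus not the class lost least.

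Seen from the receptor, most PPARG sites overlapped either a shared H3K27ac site or none. Of 7742 PPARG sites held at 2 and 48 h, 45.7% overlapped a shared H3K27ac site, 23.3% a gained one and 0.646% a lost one, and 30.4% overlapped none. The 6328 PPARG sites of 2 h only overlapped shared sites in 38.1%, gained sites in 12.1%, lost sites in 2.54% and none in 47.3%.

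PPARG also sat close to the middle of gained sites. The nearest PPARG site of 48 h had its middle within 500 bp of the site's own middle in 27.4% of gained, 10.7% of shared and 1.55% of lost sites. At 2 h the figures were 36.2%, 17.5% and 7.10%, and the median distance to the nearest PPARG site was 3.74 kb, 22.3 kb and 37.6 kb. JunD lay within 500 bp less often than PPARG at gained sites, in 20.1%, against 11.9% of shared and 2.84% of lost sites, and its median distance from gained sites was 23.7 kb. Shared sites were the widest class, and the part of width in this difference was not tested.

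**Figure D3:**
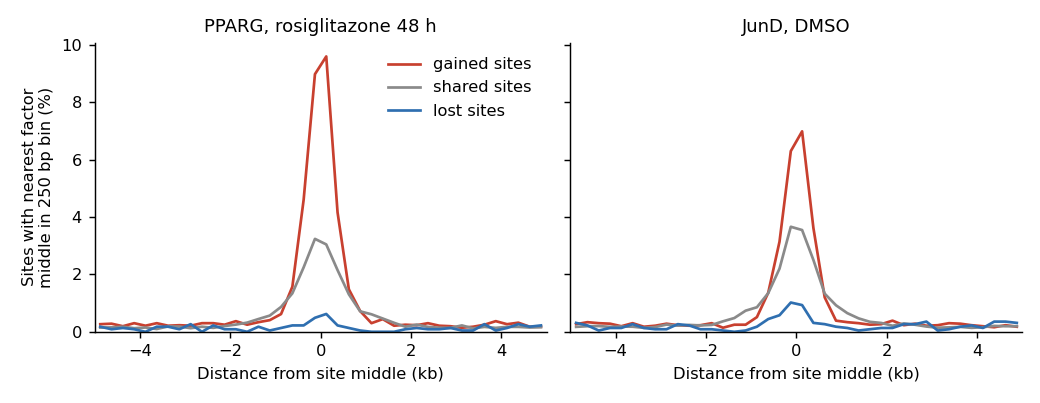
Percent of gained (red), shared (grey) and lost (blue) H3K27ac sites whose nearest factor site has its middle in each 250 bp bin of distance from the site middle (x axis, kb), for PPARG at 48 h of rosiglitazone at left and JunD in DMSO at right. Within 500 bp of the middle, PPARG of 48 h is found at 27.4% of gained and 1.55% of lost sites.

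By rule, the 5 gained sites without any DMSO peak that had the highest lower score were named, with positions in hg19. At chr1:55320971-55326250 the H3K27ac scores were 1778 and 1463 with rosiglitazone, and both DMSO libraries had no peak. PPARG scores there were 3061 and 1350 at 2 h and 3100 and 1525 at 48 h. This site had no RNAP2 peak with DMSO and RNAP2 scores of 735 and 366 with rosiglitazone, while H3K27ac peaks were also present with the LXR agonist GW3965, in 1 of 2 libraries at 24 h (1044) and in both at 48 h (207 and 233).

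The site at chr6:96424853-96427831 had H3K27ac scores of 1448 and 1696 and PPARG scores of 3100 and 3100 at 2 h. JunD was already there with DMSO (403 and 502), and RNAP2 scores were 491 and 440 with DMSO and 896 and 1036 with rosiglitazone. At chr5:124735537-124739614 H3K27ac reached 1500 and 1357, JunD 589 and 637. At chr9:75731874-75735604 it reached 1874 and 1291, with JunD at 425 and 373. The last, chr20:4525170-4528814, had 1227 and 1257, with JunD at 464 and 364. All 5 sites carried PPARG peaks in each of the 4 PPARG libraries, and JunD peaks in both JunD libraries at all but the chr1 site, which had 1 of 2.

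The 5 named lost sites had lower scores and none of these factors. At chr12:110257614-110262110 the DMSO scores were 526 and 697, and neither rosiglitazone library had a peak. RNAP2 scores there were 183 and 269 with DMSO, and with rosiglitazone only replicate 2 had a peak (182). Scores at chr22:21319259-21321487 were 502 and 674, with no RNAP2 peak in any library. The site at chr7:1117521-1119751 had 458 and 616, chr13:22385669-22389499 had 449 and 388, and chr9:132329106-132331309 had 382 and 506. The last held RNAP2 with DMSO (246 and 496) and none with rosiglitazone. No PPARG or JunD peak was found at any of the 5 sites in any library of these factors.

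Sites present in every library were then tested for a change in strength. The log2 of the highest peak score was compared over 17129 merged sites with a peak in all 4 libraries, after library medians had been made equal, with limma and Benjamini-Hochberg adjustment. The score rose at 1045 sites (6.1% of those tested) and fell at 661 (3.86%) at an adjusted p under 0.05. Risen sites had median scores of 266 and 409 in the DMSO replicates and of 1624 and 1601 in the rosiglitazone replicates. Fallen sites had medians of 563 and 1168 with DMSO and of 314 and 332 with rosiglitazone. The median change was 1.79 (log2) at risen and -1.62 at fallen sites.

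The split between rises and falls depended on the scaling. Rises made up 61.3% of the calls, but 96.1% of 619 calls when library medians were left as deposited (595 rose, 24 fell), which moved the median change of all sites from -0.08 to 0.27. With either rosiglitazone library left out no site passed (limma, adjusted), although 1756 and 1907 sites had an unadjusted p under 0.05 with a rise and 1829 and 1990 with a fall. Without DMSO replicate 1, 1414 sites rose and 326 fell, and without DMSO replicate 2 these were 814 and 254. Changes below are therefore best read against all tested sites.

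Score changes were graded by PPARG and JunD. Of the risen sites 81.2% overlapped a PPARG site of 2 h (78.8 to 83.5), 72.2% one of 48 h and 62.0% a JunD site. At fallen sites these shares were 9.23% (7.25 to 11.7), 2.87% and 4.39%, and over all tested sites they were 29.5%, 19.1% and 21.6%. Each single PPARG library of 2 h gave the same order, with 89.1% and 82.7% of risen sites and 22.1% and 9.83% of fallen sites. Risen sites were wider, with a median span of 4389 bp, against 2934 bp at fallen and 2933 bp over all tested sites. The part of span in these shares was not tested.

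The median log2 score change was 0.87 at 1795 sites with PPARG at both times and JunD, 0.55 at 1386 sites with PPARG at both times but no JunD, and 0.33 at 718 sites with PPARG at 2 h only and JunD. Without JunD, sites with PPARG at 2 h only had a median of -0.06. JunD sites without PPARG had 0.16 and sites with neither had -0.30, next to -0.08 over all tested sites. Each of the 4 pairings of a rosiglitazone with a DMSO library gave the same order between the ends of this scale, with medians of 0.71 to 1.0 at sites with both factors and -0.32 to -0.29 at sites with neither. The 4 pairings share libraries and are not independent. With library medians as deposited, sites with neither factor had a median of 0.05 rather than below 0. Equalising medians shifts all sites alike, so the distance from the median of all sites is the same in either scaling by construction. It was -0.22 at sites with neither factor. At sites with PPARG at both times that distance was 0.81, and it was between 0.72 and 0.87 with each library left out in turn.

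Calls followed the same grading. Among sites with PPARG at both times and JunD, 28.8% rose and 0.279% fell, whereas at sites with neither factor 1.14% rose and 5.42% fell, against the 6.1% and 3.86% of all tested sites. Sites were also split by their mean score into 3 ranges of equal number. Within these, 10.1%, 30.0% and 25.1% of sites with PPARG at both times rose, compared with 0.688%, 1.26% and 1.59% of sites with neither factor.

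The strength of PPARG itself tracked the change. Over 5 ranges of equal number by the lower PPARG score of 48 h, from weak to strong, the share of sites whose H3K27ac score rose was 11.3%, 14.1%, 17.3%, 25.2% and 47.2%, and the median log2 change went from 0.39 in the lowest to 1.26 in the highest range. In the highest range (PPARG scores from 855 to 3100) none of 655 sites fell. For PPARG of 2 h the shares that rose were 5.64% in the lowest and 37.9% in the highest range. This is a description over sites that share the same libraries.

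**Figure D4:**
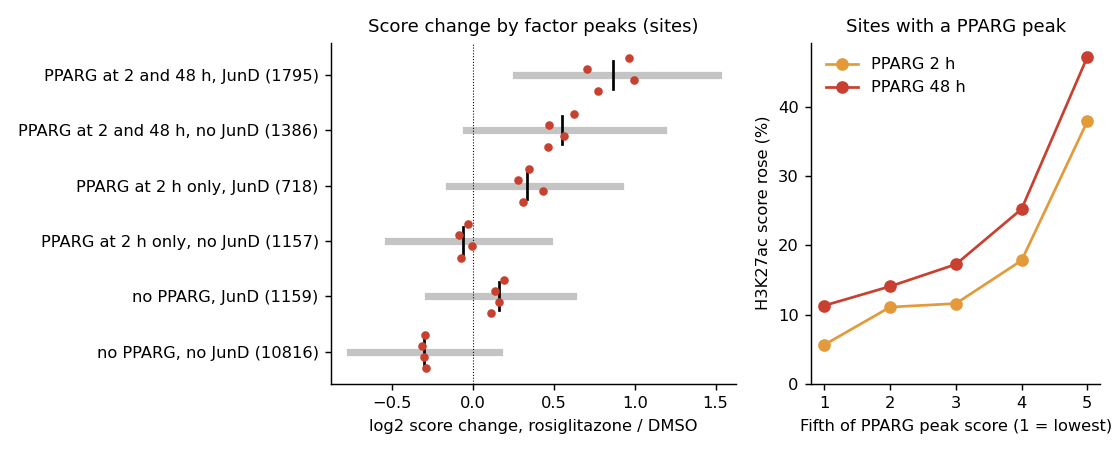
Left, log2 change of the H3K27ac peak score (rosiglitazone over DMSO, library medians equalised) by the factors found at a site, with the number of sites in brackets. Black ticks are medians over sites, grey bars the middle 50% of sites, and red points the medians of the 4 pairings of a rosiglitazone with a DMSO library. Medians run from 0.87 with PPARG at both times and JunD to -0.30 with neither. Right, percent of sites whose score rose (limma, adjusted p under 0.05) over 5 ranges of PPARG peak score, which reaches 47.2% in the highest range at 48 h.

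The 5 largest rises went from DMSO scores between 108 and 231 to rosiglitazone scores between 2076 and 3215. At chr1:19481050-19485887 the scores were 125 and 152 with DMSO and 3038 and 3100 with rosiglitazone, a log2 change of 4.12 ± 0.348 (SE, n = 2 per group; limma adjusted p = 0.0110). The site at chr13:45826096-45832716 had 231 and 112 with DMSO and 3100 in both rosiglitazone libraries (log2 change 3.91). At chr7:80348875-80356618 the scores were 130 and 116 against 2076 and 2365 (3.82). At chr18:28976286-28983695 they were 108 and 227 against 3100 and 2383 (3.76), and at chr6:47123744-47138839 they were 204 and 128 against 2368 and 3215 (3.74). Both rosiglitazone scores lay above both DMSO scores at these sites. The same held at all 1045 risen sites and at 5375 of the 17129 tested, so it does not set the named sites apart. Where a score sits at the ceiling the change is understated. All 5 held PPARG peaks in each of the 4 PPARG libraries, with scores from 1072 to 3102, and all but the chr1 site held JunD.

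Among the 5 largest falls, 4 sites had no PPARG peak and none had JunD. At chr8:145058974-145061837 the scores were 472 and 1552 with DMSO and 104 and 136 with rosiglitazone, and the log2 score fell by 3.20 ± 0.415 (SE, n = 2 per group; limma adjusted p = 0.0136). The exception for PPARG was chr11:2112894-2125881, where H3K27ac scores were 1540 and 3100 with DMSO and 469 and 215 with rosiglitazone. PPARG scores at this site were 972 and 1068 at 2 h but 269 and 149 at 48 h. The remaining falls were at chr1:48173598-48176827 (465 and 1291 against 103 and 175), chr3:37975849-37980008 (966 and 982 against 189 and 155) and chr11:60618903-60620663 (530 and 920 against 125 and 132).

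**Figure D5:**
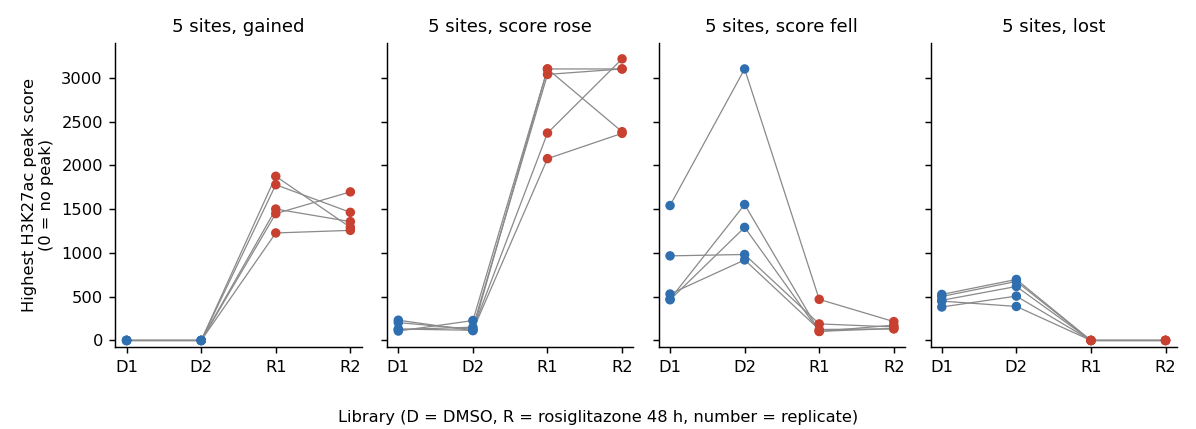
Highest H3K27ac peak score in each library (D1 and D2, DMSO in blue; R1 and R2, rosiglitazone 48 h in red) at the 5 named sites of each kind, 1 line per site, with 0 where the library has no peak. Gained sites reach 1227 to 1874 with rosiglitazone, while lost sites lie between 382 and 697 with DMSO.

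Few sites changed in width. Covered bases rose at 75 of 17129 sites (0.438% of those tested) and fell at 17 (0.0992%) by the same test. The sites that widened had median covered lengths of 1292 and 1543 bp with DMSO and of 4589 and 3541 bp with rosiglitazone. Their scores moved with the width, with a median log2 score change of 1.75. PPARG of 2 h was found at 85.3% of them (64 of 75; 75.6 to 91.6) and at 2 of the 17 that narrowed, against 29.5% of all tested sites. The widest gain was at chr6:47123744-47138839, already named for its score, where peaks covered 1266 and 3344 bp with DMSO and 15096 and 10053 bp with rosiglitazone (log2 change 2.51, limma adjusted p = 0.0498). Next were chr1:100219501-100224089, with 607 and 1057 bp against 4589 and 3394 bp, and chr1:228983733-228988899, with 838 and 1295 bp against 5167 and 4854 bp. The largest losses of width were at chr1:7737995-7741135 (2775 and 3141 bp against 1184 and 578 bp), chr15:82336879-82340264 (2248 and 3386 bp against 823 and 819 bp) and chr17:78234579-78238904 (3490 and 4326 bp against 1217 and 1151 bp). Neither PPARG nor JunD had a peak at these 3 sites. No width change passed with library medians as deposited (limma; 925 rises and 145 falls at an unadjusted p under 0.05). None passed without rosiglitazone replicate 1 (757 and 1073 unadjusted) or 2 (899 and 278), whereas 810 rose and 569 fell without DMSO replicate 1 and 1133 rose and 369 fell without DMSO replicate 2.

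At lost H3K27ac sites, RNAP2 peaks were fewer in both rosiglitazone libraries than in either DMSO library. At the 2254 lost sites, 44.3% and 52.0% had an RNAP2 peak in the DMSO replicates and 24.1% and 25.2% in the rosiglitazone replicates. The groups did not overlap, with means of 48.1% ± 5.40 (SD, n = 2) and 24.7% ± 0.753, and the exact permutation test gave p = 0.333, the smallest possible. At the strictly lost sites the means were 43.1% ± 5.13 and 17.2% ± 1.27. Shared sites moved the same way but less, from 84.3% ± 4.10 with DMSO to 77.2% ± 2.88 with rosiglitazone. Gained sites showed no such separation: 53.0% and 52.1% had RNAP2 with DMSO and 48.4% and 62.2% with rosiglitazone (exact permutation p = 1). The 2 rosiglitazone RNAP2 libraries lay on either side of DMSO there, so 1 library decided the direction of the mean.

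RNAP2 scores were also read at the sites tested for strength. Where RNAP2 was called in all 4 RNAP2 libraries, the median log2 RNAP2 score at 295 sites with fallen H3K27ac, relative to the median of all such sites, was 0.15 and 0.40 with DMSO and 0.04 and -1.02 with rosiglitazone. The groups did not overlap (difference -0.77, exact permutation p = 0.333), although the rosiglitazone replicates were far apart. At 913 sites with risen H3K27ac the values were 0.09 and -0.33 with DMSO and -0.40 and 0.70 with rosiglitazone, and the groups overlapped.

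Some gained sites lay close together. The 100 kb windows with the most gained sites, chosen by rule, were chr12:15858310-15958309 with 9, chr3:149985549-150085548 with 9 and chr5:172191508-172291507 with 8, and none held a lost site. The chr3 window contained only 1 shared site beside 10 PPARG sites of 2 h and 8 of 48 h. The chr5 window held 9 PPARG sites of 2 h and the chr12 window 6. Windows with the most lost sites held 5 each, at chr15:40360903-40460902, chr14:91765426-91865425 and chr5:141566220-141666219. They contained no gained site, at most 2 PPARG sites of 2 h and no PPARG site of 48 h. These windows were picked for their counts and other windows are not given, so how unusual any of these counts is was not tested.

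Other H3K27ac libraries were read at the strictly gained and lost sites. Since these sites were chosen for peaks absent or present in the DMSO libraries, which serve as controls for all treatments, the values are given side by side without a test. At the 2724 strictly gained sites, 77.3% and 76.2% had a peak in the 2 rosiglitazone libraries of 24 h. With GW3965, 29.7% and 41.4% had one at 24 h and 40.4% and 50.9% at 48 h. At the 1062 strictly lost sites, 25% and 38.5% had a peak at 24 h of rosiglitazone, and 73.7%, 52.4%, 79.9% and 42.7% had one in the GW3965 libraries of 24 and 48 h. For the named gained sites, all 10 values at 24 h of rosiglitazone were peaks, with scores from 632 to 1681. Of the named lost sites, those on chr7 (133 and 174) and chr9 (118 and 268) held peaks in both of these libraries. The chr13 site held one in replicate 2 only (190), and the chr12 and chr22 sites held none.

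RNA of the proteins behind these measurements was read from counts of RNA-seq libraries of 48 h with DMSO or rosiglitazone, 4 per group, with totals of 32312041 to 42120223 counts. Fewer cells of a type and less RNA per cell cannot be told apart in such samples. All 12 epithelial and colonic markers were detected, with summed levels of 18585 to 19641 CPM with DMSO and 19728 to 23525 CPM with rosiglitazone. Blood markers summed to at most 5.85 CPM, endothelial markers to at most 0.594 CPM and fibroblast markers to at most 7.50 CPM, and PTPRC, CD3E, COL1A2 and DCN were at 0 in every library of both groups. The liver list was at 153 to 170 CPM with DMSO and 36.9 to 44.0 CPM with rosiglitazone, nearly all of it SERPINA1, which fell by 2.06 (log2; edgeR adjusted p = 6.72e-14). Of the 12 genes of the epithelial list 5 rose (41.7%) and 4 fell (33.3%) at an edgeR adjusted p under 0.01. Over all 22470 genes tested the shares were 12.3% and 13.1%. Within the list KRT20 changed by the most upward (1.75) and CDX1 by the most downward (-1.03).

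Of the 10 genes reported for H3K27ac writers, erasers, readers and acetyl-CoA supply, 3 rose and none fell at an edgeR adjusted p under 0.01, against 12.3% and 13.1% of all 22470 genes tested. CREBBP, which encodes CBP, went from 193 ± 9.44 to 239 ± 17.3 CPM (SD, n = 4 each), a log2 change of 0.31 ± 0.0667 (SE; edgeR adjusted p = 0.00116). BRD2, which reads acetylated histones, rose by 0.33 with overlapping groups, and HDAC3 by 0.22, a call that was lost under 8 alternatives. EP300, which encodes p300, changed by 0.22 and did not pass (adjusted p = 0.0181), nor did HDAC1, HDAC2, NCOR1, BRD3, ACLY and ACSS2. PPARG RNA was lower in every rosiglitazone library (50.3 to 67.5 CPM) than in any DMSO library (76.2 to 85.2 CPM), and it fell by 0.47 ± 0.0763 (SE; edgeR adjusted p = 7.36e-05). RNA of its partners RXRA and RXRB changed by 0.06 and 0.08 and JUND by 0.30 (adjusted p = 0.0229), and none of these passed.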

How the data were processed

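Peak files of 4 H3K27ac libraries (DMSO and rosiglitazone 48 h, 2 each) and of PPARG, JunD and RNAP2 libraries were analysed. Per the labels' processing notes, reads were aligned with Bowtie to hg19 and peaks were called with MACS. Per the file headers, each list was called from 1 replicate's library together with a second library. By their titles, the input controls of H3K27ac and RNAP2 are common to both, with separate ones for DMSO and for rosiglitazone. Which library served as control for each list is not given in the sources used here. An input difference between treatments could reach both H3K27ac and RNAP2 peaks, and its part was not tested. The score deposited with each peak is minus 10 times the log10 p. The lowest score was 100. For RNA, the deposited whole-number gene counts were used, for which those notes name TopHat and Cufflinks.

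A shared site needed an overlap of at least 1 bp. Scores and covered bases were compared with limma 3.58.1 (trend, moderated) in R 4.3.3, shares received Wilson 95% intervals, and library means were compared by exact permutation (scipy 1.17.1, pandas 2.3.3, numpy 2.4.6, Python 3.11.15). Plots were drawn with matplotlib 3.10.9. Counts of all 16 RNA libraries of 48 h (DMSO, GW3965, T0901317 and rosiglitazone) were fitted with edgeR 4.0.16 (TMM, quasi-likelihood, filter for low counts). DESeq2 1.42.0 was an alternative. The methods were tested on simulated data in which few of 17129 sites changed. The score test found 2 of 100 changes of log2 size 2 and 57 of 100 of size 4, with 0 false calls. The width test found 85 and 95 of 100, with 6 false calls. A site without a call is therefore not shown to be unchanged.

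Named sites were the 5 gained and 5 lost ones with the highest lower score, the 5 largest called score changes and 3 largest width changes each way, and 3 windows of 100 kb each way. Members and lists were chosen with earlier results of these data known, and the RNA list of H3K27ac proteins was chosen after the files had been seen. Some genes of that list are not reported here. Marker lists covered epithelial, blood, endothelial, fibroblast and liver genes. The symbols PECAM1 and POLR2A did not match the count table. Peaks after GW3965 were used only at strictly gained and lost sites. Read depth at sites, genes near sites and sequences were not analysed here, since no genome or annotation of hg19 was used.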

Additional observations from a re-analysis of the deposited data

How the results depend on the processing

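Gains and losses followed the definition. Gained sites numbered 2724 when no peak was allowed in either library of the other group, and lost sites 1062. Lost sites were 4137 with a reciprocal overlap of 50% and 1341 with scores of at least 200. Gains exceeded losses by 1963 with reciprocal overlap, by 651 with equal numbers of top peaks and by 1662 under the stricter absence. With each library left out in turn, gained sites ranged from 3254 to 10010, lost sites from 1505 to 6890 and their difference from -3636 (without DMSO replicate 1) to 8505, where by construction the group with 1 library left gains sites.

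For scores, 595 sites rose and 24 fell without centring, and 1815 and 1042 when missing peaks were set to the lowest score. Leaving out libraries gave 0 to 1414 rises and 0 to 326 falls. For widths, 147 rose and 39 fell after quantile normalization, 0 and 0 without centring, and 0 to 1133 and 0 to 569 with libraries left out. Where 1 library was left, it was taken to vary like the other group. Counts of 0 arose without either rosiglitazone library, and the cause was not tested. Replicate numbers are shared between groups but no label pairs them, and deviations of same-numbered libraries correlated at 0.111 for scores and -0.169 for widths. With the replicate number as a block, 424 widths rose and 163 fell, and 1305 scores rose and 832 fell.

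The PPARG share at 2 h of gained minus shared sites, 14.3 percentage points, was 19.9 with scores of at least 200, 21.0 with equal numbers of peaks, 19.3 under the stricter absence, 16.2 with sites joined over 1000 bp, 17.7 in the central 1000 bp and 10.7 with PPARG scores of at least 200. At 48 h, 13.8 points became 18.2, 20.1, 19.8 and 9.97 under the first 3 and the last of these. Lost minus shared sites gave -4.04 (2 h), -3.75 (48 h) and -3.29 (JunD) with reciprocal overlap, and -16.0 (2 h) and -14.3 (JunD) in the central 1000 bp. For JunD it was also -17.4 with scores of at least 200, -16.6 with equal numbers, -17.6 under the stricter absence, -17.5 with joined sites and -9.65 with strong JunD peaks. Gained minus shared sites for JunD turned to -0.36 with strong JunD peaks. With single libraries of H3K27ac or the factor left out, gained minus shared sites ranged from 5.47 to 17.3 and from 6.06 to 17.7 for PPARG of 2 and 48 h and from -1.66 to 7.17 for JunD. Lost minus shared sites ranged from -24.1 to -18.2, from -24.3 to -14.9 and from -19.2 to -15.4. The order gained, shared, lost held in 12 of 12 settings for PPARG at both times and in 10 of 12 for JunD. These H3K27ac settings, and leaving out factor libraries, were added for the shares after seeing the data. The RNAP2 share at gained sites, rosiglitazone minus DMSO, ranged from -4.14 (without rosiglitazone replicate 2) to 9.68 points, and at strictly gained sites from -3.18 to 15.7. At lost, strictly lost and shared sites it was below 0 in each alternative.

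The 16 named score and width changes kept their direction, and none passed without either rosiglitazone library. The 6 width calls were also lost without centring, and chr6:47123744-47138839 lost its width call when the span was used. The RNA of genes near sites was not run, since it needs hg19 gene coordinates. RNA alternatives were added after seeing the data, and no gene of the 14 for assayed factors and H3K27ac proteins changed direction. HDAC3 lost its call without a count filter and in 7 of 8 fits without 1 library, while JUND and EP300 passed with DESeq2. Peak number and score rise with depth, which is unknown here.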
